A study of Mus musculus with 38 samples.

Results

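Clk kinases and SR splicing factors were examined in sorted cells of the bone marrow of mice with and without myeloma. The 10 genes were taken by symbol from a table of 13260 genes, and all 10 were present: the kinases Clk1, Clk2, Clk3 and Clk4, and the SR protein genes Srsf2, Srsf3, Srsf5, Srsf6, Srsf7 and Srsf11. The genes were chosen because Clk1 was higher in myeloma cells of the bone lining than in those of the central marrow, so values of that comparison are given here as a description, without a test. C57Bl/KaLwRij mice aged 8 to 10 weeks received PBS vehicle or 5TGM1-GFP cells, a mouse myeloma line carrying green fluorescent protein, by vein and were culled on day 23. Libraries were made from 100 sorted cells each, 38 in all. From both healthy and myeloma-bearing mice there were 5 libraries of endothelial cells (CD31+), 5 of stromal progenitors (Sca1+ALCAM-) and 4 of osteoprogenitors (ALCAM+Sca1-), all negative for CD45 and Ter119. GFP+ myeloma cells gave 5 libraries from the bone lining and 5 from the central bone marrow. Bone lining cells were released by collagenase from crushed bone already washed free of marrow, and central marrow cells by flushing, so that site and handling cannot be told apart. Myeloma cells were 1 transplanted line, and each replicate is named by the letter of its library code, which the labels do not tie to a mouse.

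SR proteins bind exonic enhancers in pre-mRNA and recruit the spliceosome through domains rich in arginine and serine. Clk kinases, which sit in the nucleus, phosphorylate these domains and release SR proteins from nuclear speckles. SRPK kinases phosphorylate SR proteins in the cytoplasm, before their import into the nucleus. Many SR protein and Clk genes also limit their own output: skipping of an exon, inclusion of a poison exon or retention of an intron gives a transcript that is degraded by nonsense-mediated decay or held in the nucleus. Clk1 is known as a gene with a pool of unspliced transcript that is spliced on stress. Values per gene, as used here, add up all of these forms.

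How far the annotation allows such forms is shown here because it sets what a level of these genes can mean. In GENCODE vM21 (GRCm38) the 10 genes have 106 transcripts, of which 33 are annotated as protein coding, 17 as targets of nonsense-mediated decay and 45 as holding a retained intron. Each of the 10 genes has at least 1 transcript of each of these 3 kinds. Clk1 has 13 transcripts, of which 1 is protein coding, 2 are decay targets and 7 retain an intron. In all 4 Clk genes the fourth of 13 exons in the principal transcript is left out by at least 1 annotated decay target. This exon has 91 bases in Clk1 and Clk4, 85 in Clk2 and 97 in Clk3, none a multiple of 3, so that skipping it shifts the reading frame. The exons of Clk1 and Clk4, the close pair of the family, are identical at 85 of 91 bases (93.4%) and are printed 5′ to 3′ on the coding strand, with capitals at the 6 bases that differ.
Clk1 exon, GRCm38 chr1:58420121-58420211, minus strand: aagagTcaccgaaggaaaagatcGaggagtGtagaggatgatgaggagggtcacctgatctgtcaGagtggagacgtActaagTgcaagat
Clk4 exon, GRCm38 chr11:51273078-51273168, plus strand: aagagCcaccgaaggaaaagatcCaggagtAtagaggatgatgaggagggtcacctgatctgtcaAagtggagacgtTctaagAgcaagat
No stretch of 50 bases was shared exactly between the principal transcripts of any members and transcripts of other members, so the close pair Clk1 and Clk4 can be told apart by reads that match exactly. Stretches of 50 bases that occur in transcripts of other genes made up 35.2% of the Srsf2 principal transcript (in Mettl23 and Mfsd11, which lie on the opposite strand), 31.5% of Srsf3, 27.85% of Srsf5, 19.0% of Clk3 (in Edc3, on the opposite strand, and 1 other gene) and 0.938% of Srsf7. None were found for Clk1, Clk2, Clk4, Srsf6 or Srsf11. Counting was run with default settings, which take no account of strand, so reads of Srsf2 and Clk3 cannot be told apart from those of the opposite strand where the genes overlap. Srsf3, Srsf5 and Srsf7 instead share stretches with genes known by number only, such as Gm12355 for Srsf3 and Gm12966 for Srsf5. Levels of Srsf2, Srsf3, Srsf5 and Clk3 are less certain for these reasons.

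Markers of endothelial cells, osteoprogenitors and myeloma cells set their groups apart. The summed RPKM (reads per kilobase of gene length, scaled to library size) of 5 endothelial markers was 1840 to 3809 in endothelial libraries and at most 23.5 elsewhere. Of the 6 osteoprogenitor markers the sum was 8566 to 60097 in osteoprogenitors and at most 2657 elsewhere, and of 5 myeloma markers it was 3721 to 10337 in myeloma cells and at most 452 elsewhere. The stromal list did not single out stromal progenitors, since its most abundant gene Ly6a, which encodes Sca1, had a median of 1322 RPKM in healthy stromal progenitors and 3798 RPKM in healthy endothelial cells. In addition, 2 stromal libraries carried markers of blood cells although CD45+ and Ter119+ cells were gated out. The summed RPKM of 4 neutrophil markers was 7233 in library L of healthy mice and 8061 in library E of myeloma-bearing mice, against 0 to 180 in the other 8 stromal libraries, and that of 2 erythroid markers was 1379 in library L of healthy mice and at most 35.6 in the others. Their part in the values of the splicing genes was not tested, and values without these letters are given with the stromal comparisons. Library totals, read back from the RPKM steps, were 9735031 to 34883291 reads. A bulk library of sorted cells cannot tell fewer cells of a type from less RNA per cell. The library of stromal progenitors from myeloma-bearing mice with letter I stood apart for several members, with the lowest Clk1 (56.7 RPKM), Clk4 (10.8 RPKM) and Srsf7 (58.6 RPKM) and the highest Srsf5 (312 RPKM) of all 38 libraries.

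Clk1 had the highest mean of the Clk genes, above Clk4 in 34 of the 38 libraries and below it in library L of healthy endothelial cells and libraries G, I and J of central marrow myeloma cells. It was among the most abundant genes measured, its mean RPKM over the 38 libraries exceeding that of 97.5% of genes. In endothelial cells of healthy mice Clk1 was at 294, 226, 696, 545 and 289 RPKM (letters C, L, M, N and O). In endothelial cells of myeloma-bearing mice it was at 618.1, 535, 364, 484 and 331 RPKM (letters D, E, G, I and J). These 10 values spanned a common range, with the healthy libraries the more spread. In stromal progenitors Clk1 was at 296, 170, 215, 142 and 385 RPKM in healthy mice (letters C, L, M, N and O). In stromal progenitors of myeloma-bearing mice it was at 275, 265, 265, 56.7 and 580.0 RPKM (letters D, E, G, I and J), where D, E and G lay together, I lowest and J highest. In osteoprogenitors Clk1 was at 531, 405, 269 and 564 RPKM in healthy mice (letters L, M, N and O) and at 316, 233, 440.0 and 414 RPKM in myeloma-bearing mice (letters D, G, I and J). Myeloma cells lay lower and closer together. Those of the bone lining were at 156, 173, 130.5, 169 and 197 RPKM and those of the central marrow at 95.2, 73.3, 61.1, 82.1 and 68.8 RPKM (letters D, E, G, I and J in both).

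**Figure D1:**
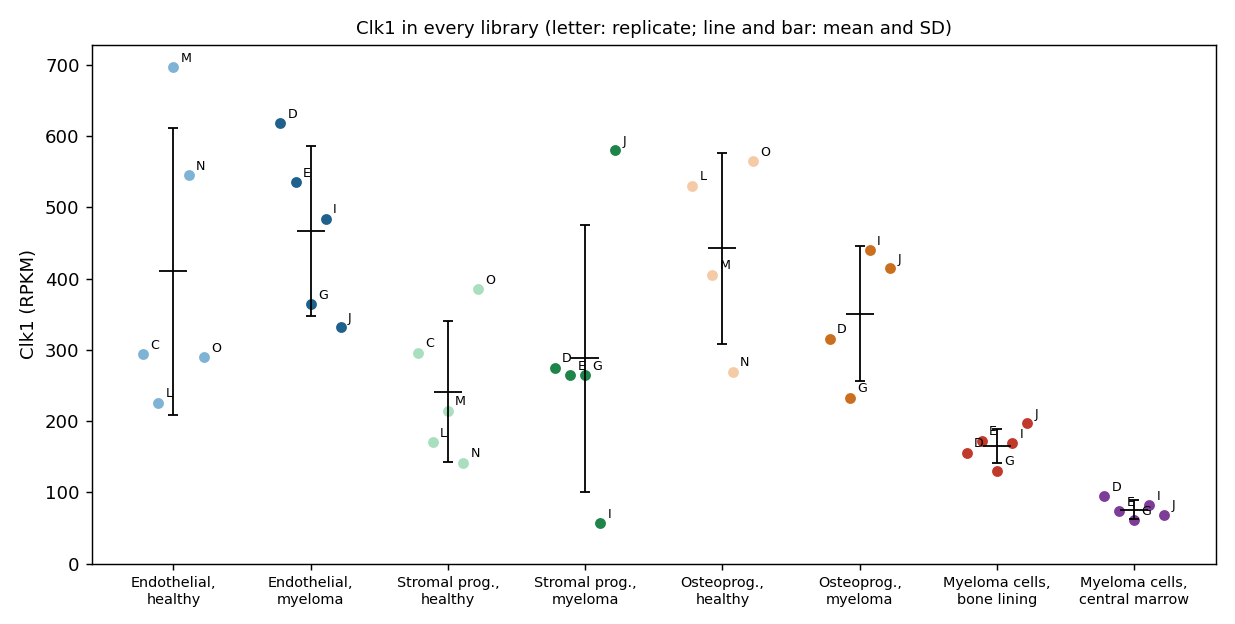
Clk1 level (RPKM, linear axis from 0) in each of the 38 libraries, by group, with replicate letters. Horizontal lines and bars are the mean and SD. The 5 central marrow myeloma libraries lie between 61.1 and 95.2 RPKM, the 5 bone lining ones between 130.5 and 197 RPKM, and most niche cell libraries above both.

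The order of the group means of Clk1 was endothelial cells of myeloma-bearing mice (467 ± 119 RPKM, SD, n = 5), healthy osteoprogenitors (442 ± 134, n = 4), healthy endothelial cells (410 ± 201, n = 5), osteoprogenitors of myeloma-bearing mice (351 ± 95.1, n = 4), stromal progenitors of myeloma-bearing mice (288 ± 187, n = 5), healthy stromal progenitors (242 ± 99.1, n = 5), bone lining myeloma cells (165 ± 24.3, n = 5) and central marrow myeloma cells (76.1 ± 13.1, n = 5). Of the 7 pairs of neighbours in this order only the last did not overlap. The first mean was 6.13 times the last. Within groups the residual SD of Clk1 was 0.62 on the log2(RPKM + 1) scale, above that of 8.12% of 12683 genes, most of them less abundant, and above that of 20.3% of the 1699 genes with a mean over 50 RPKM. In stromal progenitors of myeloma-bearing mice the highest Clk1 was still 10.2 times the lowest.

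Clk4, the closest relative of Clk1, was the next Clk gene in abundance, with a median of 99.6 RPKM and a range from 10.8 to 339 RPKM. Its group means ran from 66.9 ± 33.8 RPKM (SD, n = 5) in stromal progenitors of myeloma-bearing mice to 190 ± 108 RPKM (n = 4) in healthy osteoprogenitors, a ratio of 2.84, and every pair of neighbours in the order overlapped. The order of Clk4 was not that of Clk1: central marrow and bone lining myeloma cells had 72.7 ± 20.3 and 84.8 ± 46.0 RPKM (n = 5 each), above stromal progenitors of myeloma-bearing mice. Clk2 and Clk3 were lower, with medians of 18.1 and 21.8 RPKM. Clk2 had 0 reads in the healthy stromal progenitor library O, which allows up to 0.0581 RPKM (3 reads), and Clk3 had 0 reads in library L of the same group, which allows up to 0.0705 RPKM. These limits cover counting error only, since PCR copies were not marked by molecular identifiers. Clk2 was the most variable of the 10 genes within groups, with a residual SD of 1.54 (log2), above that of 77.8% of genes, and Clk3 followed with 1.39, above that of 66.6%.

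Of the summed RPKM of the Clk genes, Clk1 made up 35.3% to 91.5% in each of the 28 niche cell libraries. The mean share was 61.8 ± 15.8% and 71.3 ± 11.5% in endothelial cells of healthy and myeloma-bearing mice (SD, n = 5 each), 63.6 ± 12.3% and 74.1 ± 5.85% in stromal progenitors (n = 5 each) and 63.2 ± 12.3% and 73.4 ± 10.8% in osteoprogenitors (n = 4 each). In bone lining myeloma cells the share of Clk1 was 70.3%, 56.8%, 51.0%, 57.8% and 54.0% (letters D, E, G, I and J). In central marrow myeloma cells it was 48.8%, 43.5%, 31.0%, 35.7% and 31.4%, below all bone lining libraries. The share of Clk2 and Clk3 together was 25.6% to 28.1% in central marrow myeloma cells, above that in every other library, the next highest being 23.5% in bone lining library D. Shares within a family depend on every member, and the shift between the myeloma sites is part of the comparison by which the genes were chosen.

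**Figure D2:**
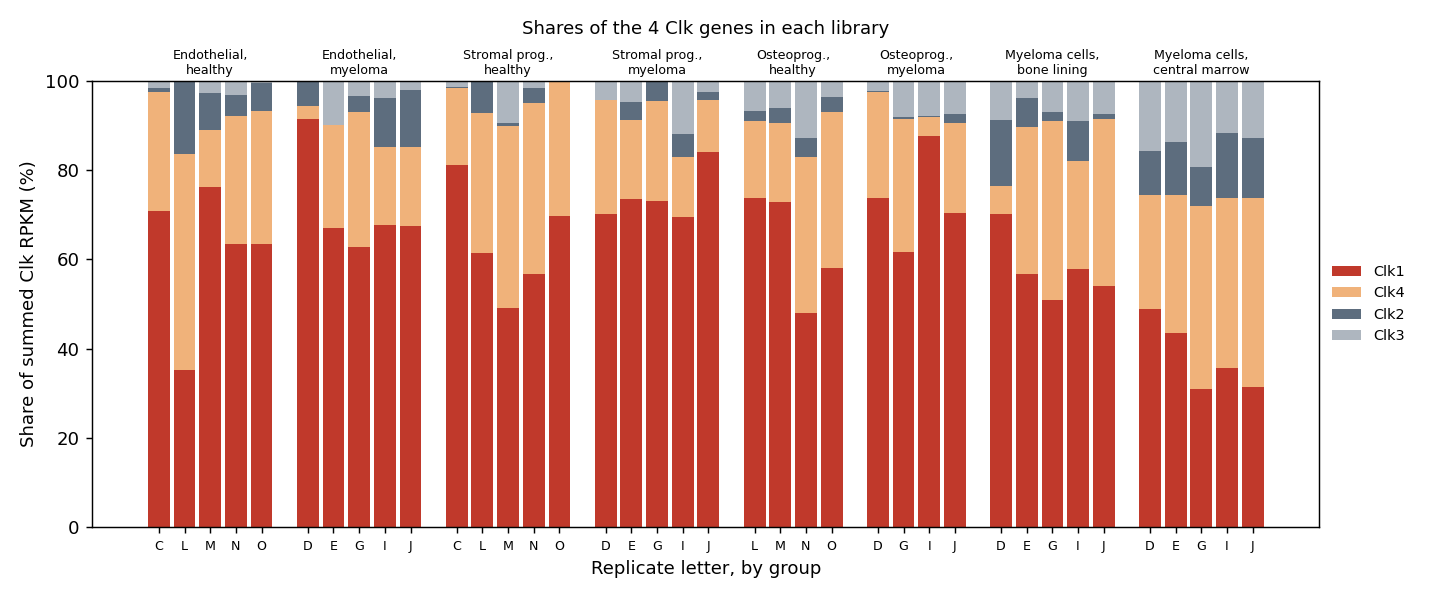
Stacked bars of the share of each Clk gene (%, of the summed RPKM of the Clk genes) in each library, grouped and labelled by replicate letter. Clk1 (red) takes 31.0% to 48.8% in central marrow myeloma cells and 51.0% to 70.3% in bone lining myeloma cells, and Clk2 and Clk3 (greys) together take at least 25.6% in each central marrow library.

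Among the SR proteins Srsf2, which acts at both splice site choice and transcript elongation, and Srsf7, a shuttling SR protein with a zinc knuckle, were the most abundant, with medians of 246 and 244 RPKM. Together they made up 37.2% to 82.6% of the summed RPKM of the 6 SR genes over the 38 libraries. The group means of Srsf2 ran from 160 ± 20.3 RPKM (SD, n = 5) in central marrow myeloma cells to 478 ± 177 RPKM (n = 5) in healthy endothelial cells. Srsf7 ran the other way at one end, with its highest mean in central marrow myeloma cells (297 ± 47.8 RPKM, n = 5) and its lowest in healthy stromal progenitors (161 ± 66.2 RPKM, n = 5). The ratio of Srsf7 to Srsf2 was 1.23 to 2.24 in central marrow and 0.998 to 2.97 in bone lining myeloma cells, and 0.172 to 0.955 in healthy endothelial cells. In the other niche cells it was 0.620 to 1.23 (endothelial cells of myeloma-bearing mice), 0.336 to 1.18 and 0.202 to 1.88 (stromal progenitors of healthy and myeloma-bearing mice) and 1.01 to 1.21 and 0.363 to 2.73 (osteoprogenitors of healthy and myeloma-bearing mice), so that the myeloma cells overlapped niche cells.

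Srsf3, a small SR protein that also takes part in mRNA export, Srsf5, Srsf6 and Srsf11 were at medians of 77.8, 72.4, 82.9 and 62.0 RPKM. For each of the 6 SR genes every pair of neighbours in the order of the 8 group means overlapped. The ratio of the highest to the lowest group mean was 3.0 for Srsf2, 2.52 for Srsf11, 2.42 for Srsf5, 2.0 for Srsf3, 1.84 for Srsf7 and 1.68 for Srsf6. Residual SDs within groups were 0.48 for Srsf2, 0.54 for Srsf7, 0.56 for Srsf3, 0.59 for Srsf11, 0.63 for Srsf5 and 0.78 for Srsf6 (log2), with that of Srsf2 above 3.45% of all genes and 8.36% of those with a mean over 50 RPKM. Across the 10 genes the median coefficient of variation within a group was 16.9% in central marrow and 30.5% in bone lining myeloma cells and 31.5% to 55.0% in the niche cell groups. For all genes with a group mean above 50 RPKM the medians were 17.2%, 32.4% and 38.8% to 73.9%, so that this difference was not peculiar to the splicing genes.

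**Figure D3:**
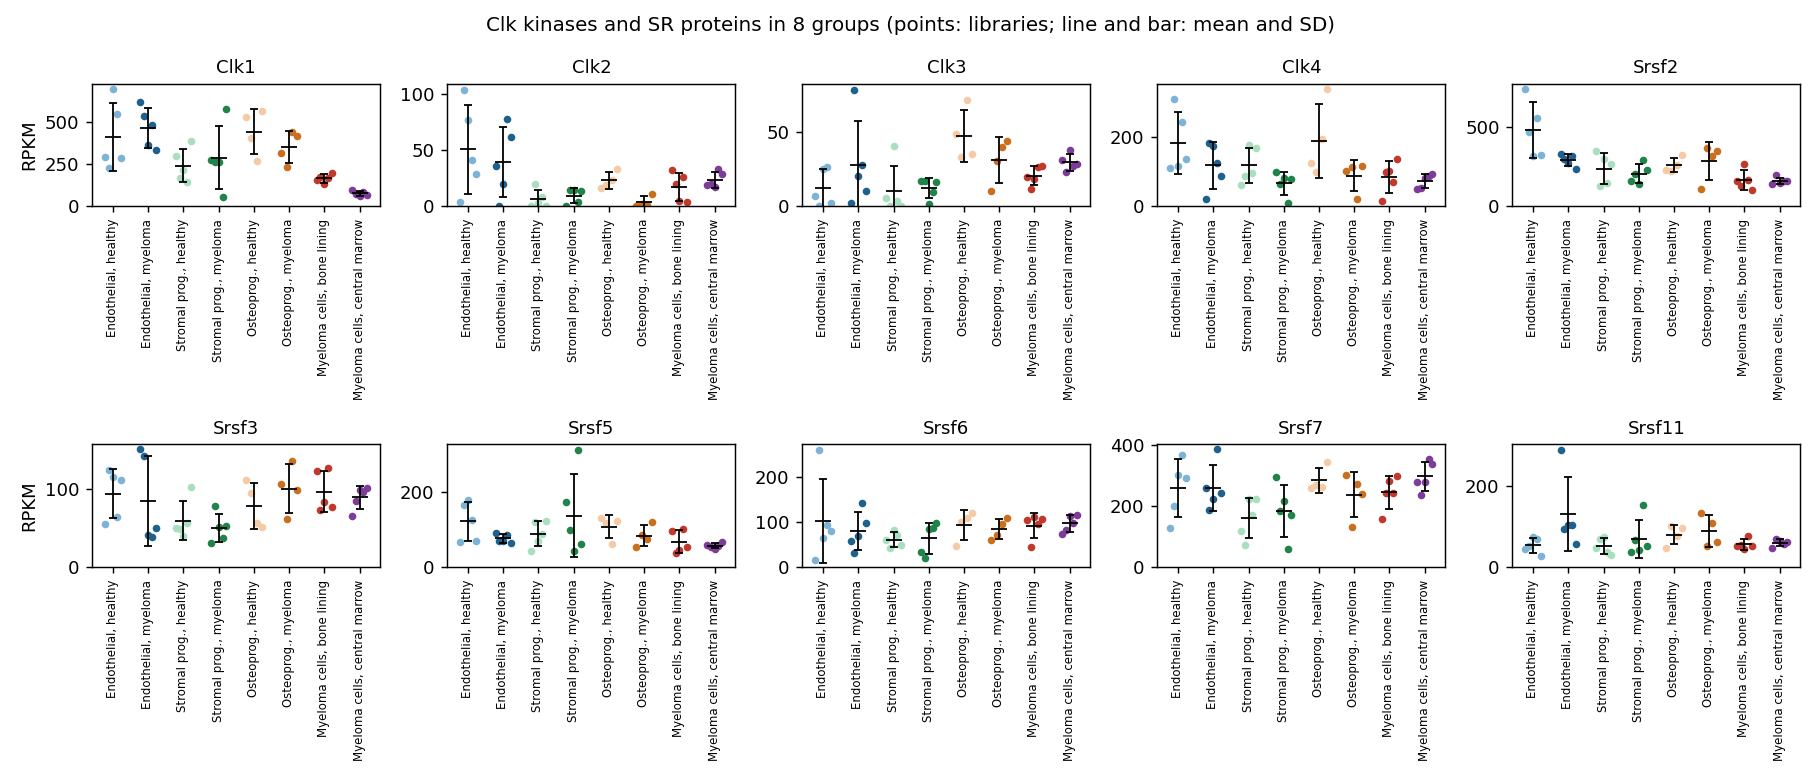
Level (RPKM, linear axes from 0, each with its own scale) of each of the 10 genes by group; points are libraries, and lines and bars the mean and SD. Clk1 shows its 2 lowest groups in myeloma cells, Srsf7 its highest in central marrow myeloma cells, and Clk2 and Clk3 scatter widely within niche cell groups.

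In the comparison by which the genes were chosen, bone lining against central marrow myeloma cells, Clk1 was 2.16-fold higher in the bone lining (log2 fold change 1.11, SE 0.21, on the log2(RPKM + 1) scale). All 5 bone lining libraries lay above all 5 central marrow libraries. Of 8857 genes compared, 0.903% lay higher in the bone lining without overlap, 0.147% were called higher and 0.203% were called in either direction, and nothing is read from this, since the genes were chosen on this contrast. The log2 fold changes of the other 9 genes, all with overlapping groups, ran from -0.76 (SE 0.49) for Clk2 to 0.14 (SE 0.29) for Srsf5, and the median over the 10 genes was -0.09 beside -0.01 over all genes. Clk4 was at 13.9, 99.9, 102.3, 71.2 and 137 RPKM in the bone lining (letters D, E, G, I and J). In the central marrow it was at 49.8, 52.0, 80.9, 87.7 and 92.9 RPKM, a log2 fold change of -0.05 (SE 0.46), although the mean was higher in the bone lining (84.8 against 72.7 RPKM). Without letter D, the library with the lowest Clk4 of the bone lining, the log2 fold change was 0.38.

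Other genes of the splicing machinery were read from lists written with earlier results of these data known. They belong to the same contrast and are likewise described without a test. For 4 other SR proteins, 21 SR-related proteins, 5 other SR kinases and import factors, 26 hnRNP and PTB proteins, 28 core spliceosome genes and 10 genes of nonsense-mediated decay the median log2 fold changes between the myeloma sites were -0.04, 0.16, -0.09, 0.04, -0.05 and 0.09, beside -0.01 over all genes. The gene furthest from 0 was Srsf4 (-0.49, SE 0.49) among other SR proteins, Sfswap (-1.15, SE 0.43) among SR-related proteins, Srpk2 (-0.65, SE 0.39) among kinases, Hnrpdl (0.50, SE 0.29) among hnRNP proteins, Eftud2 (-0.62, SE 0.42) in the core spliceosome and Upf1 (0.77, SE 0.57) in nonsense-mediated decay. The groups overlapped for each of these.

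Immediate-early genes, which respond within minutes to stimulation, and heat shock genes, which encode chaperones, are described for the same libraries. Junb (17.8 ± 2.90 against 7.58 ± 4.35 RPKM, SD, n = 5 each) was higher in the bone lining without overlap, as were 0.903% of all genes compared. Fos (93.2 ± 51.9 against 8.33 ± 10.1), Fosb (15.7 ± 10.0 against 0.656 ± 0.931) and Nr4a1 (4.21 ± 2.13 against 0.198 ± 0.225) lay apart too. They met the filter on low values mainly through bone lining libraries, with 3, 2 and 0 of 5 central marrow libraries above 1 RPKM. Dusp1 (43.5 ± 12.3 against 14.2 ± 17.7) and Zfp36 (30.9 ± 19.3 against 13.3 ± 5.80) overlapped, Ier2 stood at 22.5 ± 8.08 and 21.1 ± 3.13, and Btg2 at 68.6 ± 25.3 and 87.5 ± 14.5. The other 4 of the 12 listed genes, Jun, Egr1, Ier3 and Atf3, were too low to be compared. Of 10 heat shock genes Hspa1a and Hspa1b were too low as well, and the groups overlapped for the rest. Dnajb1 had the largest difference among these (31.0 ± 9.28 against 15.5 ± 6.22, log2 fold change 0.97, SE 0.33). The mean log2(RPKM + 1) over all 12 listed immediate-early genes was 2.97 to 3.62 in bone lining and 1.64 to 2.67 in central marrow myeloma cells, and 6.85 to 8.80 in niche cells. Markers of some other cells differed in their median sum between the sites, although the ranges overlapped. The summed RPKM of 2 erythroid markers was 0.111 to 294 (median 0.222) in bone lining libraries and 6.37 to 3189 (median 764) in central marrow ones. For 5 stromal markers it was 0.492 to 38.1 (median 9.08) and 0.140 to 4.72 (median 0.816), and for 5 endothelial markers 6.19 to 17.4 and 3.46 to 23.5. For 6 osteoprogenitor markers it was 25.6 to 75.0 and 38.03 to 96.9, with Sp7 at 0 in every library of both sites. For 4 neutrophil markers it was 0 to 18.9 (median 1.87) and 0.470 to 44.4 (median 22.5), and for 6 macrophage and osteoclast markers 170 to 903 and 406 to 638. Cd68 made up most of this last sum, with medians of 666 and 506 RPKM, and the other markers of that list had medians of at most 1.02 RPKM. Pecam1 (medians 12.3 and 8.98 RPKM) led the endothelial sum and Alpl (29.3 and 46.6 RPKM) the osteoprogenitor sum. The paper lists some expression of Pecam1 and Alpl in 5TGM1 cells, so these 3 sums are not read as other cells. The part of handling or of other cells in the Clk1 difference was not tested.

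**Figure D4:**
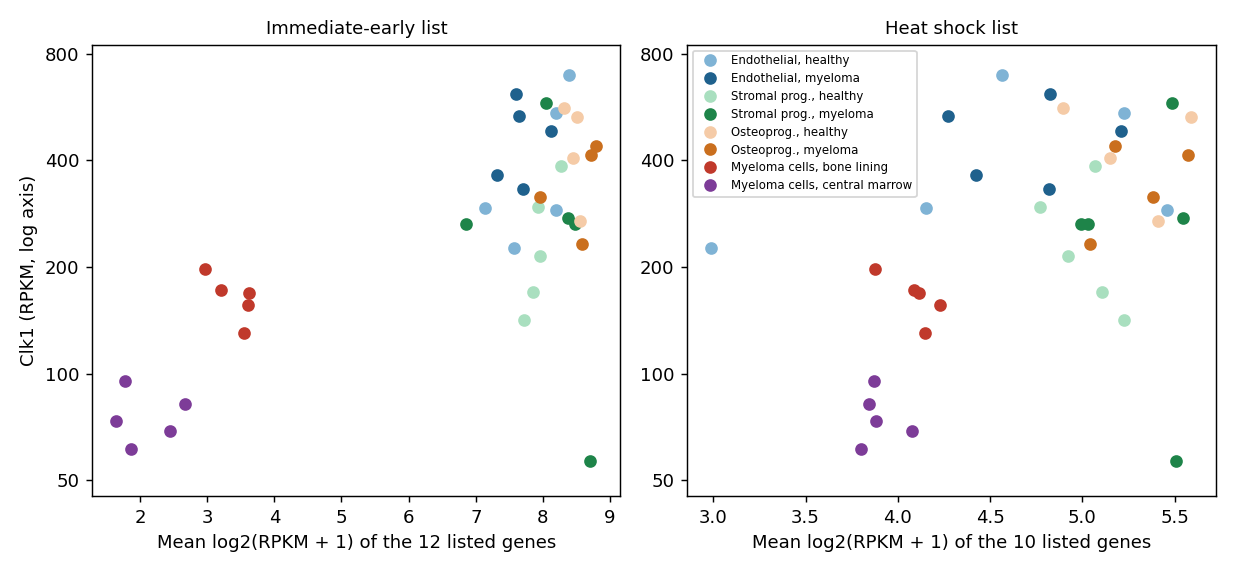
Clk1 (RPKM, log axis) against the mean log2(RPKM + 1) of 12 immediate-early genes (left) and of 10 heat shock genes (right), one point per library and one colour per group. Bone lining myeloma cells lie above and to the right of central marrow myeloma cells in the left panel, and niche cells far to the right; the stromal progenitor library at 56.7 RPKM has the lowest Clk1.

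Myeloma cells of both sites were then compared with niche cells of myeloma-bearing mice, a comparison that shares the myeloma libraries with the one above. All niche cells came from the bone lining, but 5 of the 10 myeloma libraries came from central marrow, so handling is partly mixed with cell type. Clk1 was at 165 ± 24.3 RPKM in bone lining and 76.1 ± 13.1 RPKM in central marrow myeloma cells (SD, n = 5 each). The part of handling was not tested. Clk1 was lower in myeloma cells, at 121 ± 50.3 RPKM (SD, n = 10) against 370 ± 153 RPKM (n = 14), a 2.94-fold difference (log2 fold change -1.56, SE 0.26; limma, adjusted p = 2.3e-05). In myeloma cells Clk1 had its lowest value at 61.1, its median at 113 and its highest at 197 RPKM, and in niche cells the same values were 56.7, 348 and 618.1 RPKM. Of the 14 niche libraries 13 lay above every myeloma library, the exception being the stromal progenitor library I, and the log2 fold change of Clk1 stayed between -1.70 and -1.47 when any 1 letter was left out. Clk1 and Clk2 were the only 2 of the 10 genes past both thresholds (adjusted p below 0.1 and a log2 fold change beyond 1 in size), where 50% of all 11836 genes tested passed them, 23.1% lower and 26.9% higher in myeloma cells.

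Clk2 went the other way in this comparison, with a log2 fold change of 1.20 (SE 0.60; limma, adjusted p = 0.097), although its means were close at 20.6 ± 10.2 RPKM in myeloma cells (SD, n = 10) and 18.5 ± 24.3 RPKM in niche cells (n = 14). In myeloma cells Clk2 ran from 4.08 over a median of 19.9 to 33.3 RPKM, and in niche cells from 0.158 over 12.5 to 78.1 RPKM. Of the niche libraries 5 lay below every myeloma library and 3 above. The call for Clk2 was lost with voom-limma on recovered reads (log2 fold change 1.65), with array weights (0.83), with median-ratio scaling (1.09), without a filter and with all libraries in the fit (1.20 in both), and without letters D, E, G or I (0.80 to 1.46). Srsf2 passed the adjusted p alone (log2 fold change -0.63, SE 0.22; limma, adjusted p = 0.017), at 162 ± 44.1 RPKM in myeloma cells and 257 ± 80.3 RPKM in niche cells (n = 10 and 14), with 8 of 14 niche libraries above every myeloma library. At this rule, any fold, 26.8% of all genes were lower in myeloma cells, and the adjusted p of Srsf2 ran from 0.0054 to 0.103 over the alternatives. Clk4 had a log2 fold change of -0.06 (SE 0.45), and the other 6 genes lay between -0.54 (Srsf5, SE 0.29) and 0.50 (Clk3, SE 0.45), with adjusted p from 0.13 to 0.92 (limma) for the 7 together. Median log2 fold changes were 0.14 over the 10 genes and 0.22 over all genes.

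In the same comparison 17 of 28 core spliceosome genes were called higher in myeloma cells and none lower, with a median log2 fold change of 1.26 beside 0.22 over all genes, of which 26.9% were called higher and 23.1% lower. Snrpa (40.4 ± 14.3 against 11.3 ± 11.4 RPKM; log2 fold change 2.39, SE 0.55) and Snrpd1 (328 ± 67.9 against 104 ± 80.7 RPKM; 2.33, SE 0.59), proteins of the U1 particle and of the Sm ring, rose most. Among 5 other SR kinases and import factors 2 rose: Srpk1, the cytoplasmic SR protein kinase (28.6 ± 11.3 against 5.23 ± 10.4 RPKM; 3.62, SE 0.60), and Tnpo3, the importin of SR proteins (15.4 ± 6.58 against 8.63 ± 7.68 RPKM; 1.42, SE 0.59). Srpk1 exceeded 1 RPKM in only 6 of 14 niche libraries, with a niche median of 0.0576 RPKM. SR-related proteins were split with 3 called higher and 3 lower of 23, led by Rnps1 (1.45, SE 0.37), Luc7l3 (1.21, SE 0.46), Arglu1 (-1.37, SE 0.36) and Son (-1.10, SE 0.25), the third lower gene, Scaf4, being at most 0.313 RPKM in myeloma cells and so tested through niche cells alone. Of 26 hnRNP and PTB proteins 3 were called higher, among them Hnrnpab (1.62, SE 0.24) and Hnrnpl (1.07, SE 0.46), and 2 lower, Hnrnpa0 (-1.38, SE 0.31) and Hnrnph2 (-1.12, SE 0.52). Of 4 other SR proteins Srsf9 rose (1.34, SE 0.34), and of 10 genes of nonsense-mediated decay Smg8 rose (1.54, SE 0.43). Smg8 exceeded 1 RPKM in only 4 of 14 niche libraries, with medians of 4.07 RPKM in myeloma and 0.0953 RPKM in niche cells. Of the immediate-early genes Fos, Fosb, Junb, Ier2, Dusp1, Zfp36 and Nr4a1, each above 1 RPKM in at least 4 myeloma libraries, were called lower in myeloma cells, as were 23.1% of all genes. Jun, Egr1, Ier3 and Atf3 exceeded 1 RPKM in at most 2 of 10 myeloma libraries and so were tested through niche cells alone, and no fold is given for them. Egr1 was at 0.144 to 1.92 RPKM in myeloma and 206 to 1131 RPKM in niche cells, and Ier3 at 0.0679 to 1.94 and 239 to 1089 RPKM. Heat shock genes were split: of 10, Hspe1 (2.397, SE 0.28) and Hspd1 (2.21, SE 0.37) rose, and Dnajb1 (-1.90, SE 0.41) and Bag3 (-2.42, SE 0.56), named after their values were seen, fell. Hspa1a and Hspa1b exceeded 1 RPKM in 1 of 10 myeloma libraries each and were likewise tested through niche cells alone, at 0 to 1.65 and 0 to 2.45 RPKM in myeloma cells and 21.7 to 177 and 17.0 to 219 RPKM in niche cells. The adjusted p of each gene named here as called was at most 0.076 (limma).

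In healthy mice none of the 10 genes passed both thresholds between endothelial and mesenchymal cells (stromal progenitors and osteoprogenitors), where 21.6% of 9952 genes did. Srsf2 was higher in endothelial cells by the adjusted p alone (log2 fold change 0.94, SE 0.35; limma, adjusted p = 0.079), where 8.13% of genes were higher at any fold, and this adjusted p ran from 0.023 to 0.304 over the alternatives, with 0.16 without letter L, whose stromal library carried neutrophil markers. Srsf2 was at 738, 463, 316, 555 and 320.1 RPKM in endothelial cells (letters C, L, M, N and O). It was at 347, 124, 299, 146 and 264 RPKM in stromal progenitors (same letters) and at 229, 222, 261 and 319.6 RPKM in osteoprogenitors (letters L, M, N and O). The endothelial group overlapped the others at its low end. Clk2 was at 51.1 ± 39.8 RPKM in endothelial cells (SD, n = 5) and 13.8 ± 11.6 RPKM in mesenchymal cells (n = 9), with a log2 fold change of 1.85 (SE 0.86; limma, adjusted p = 0.16). Among the alternatives Clk2 passed both thresholds only with the replicate block (2.14) and without letter C (2.34). Of the 10 log2 fold changes 8 were above 0, as were 41.2% of all genes, with a median of 0.27 beside -0.31 over all genes. Median-ratio scaling moved the median of all genes by -0.18 and turned Clk1, Clk4, Srsf5, Srsf6 and Srsf7 below 0, so no direction is given for these.

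Of the lists in this comparison, 1 of 23 SR-related proteins (Arglu1, 158 ± 78.2 against 29.3 ± 18.4 RPKM; log2 fold change 2.46, SE 0.54) and 1 of 26 hnRNP and PTB proteins (Ptbp3, 70.9 ± 29.4 against 21.4 ± 11.2 RPKM; 1.81, SE 0.53) rose in endothelial cells, where 21.6% of all genes passed in either direction. Of 27 core spliceosome genes Snrpb2 rose (1.53, SE 0.42), and Atf3 (-1.55, SE 0.46) and Fosb (-1.17, SE 0.44) of the immediate-early list were lower. The adjusted p of each was at most 0.077 (limma). Prpf31 of the core spliceosome and Hsph1 of the heat shock list met the filter through mesenchymal cells alone, and no fold is given for them. Prpf31 was at 0 to 0.0551 RPKM in endothelial and 1.01 to 26.3 RPKM in mesenchymal cells, and Hsph1 at 0.0135 to 30.6 and 5.68 to 54.8 RPKM. None of the other SR proteins, other kinases or genes of nonsense-mediated decay passed, the gene furthest from 0 being Srsf4 (-1.02, SE 1.04), Tnpo3 (0.40, SE 1.03) and Upf3b (-1.70, SE 0.88) in the 3 lists.

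Between osteoprogenitors and stromal progenitors of healthy mice all 10 genes had a log2 fold change above 0, with a median of 0.64 beside 0.00 over all genes, and 50% of all genes were above 0. Clk2 and Clk3 were above 1 RPKM in 3 of 5 stromal libraries each, so both met the filter of 4 libraries through osteoprogenitors, where they were higher, and their tests and the count and median over the 10 genes support nothing. None passed both thresholds, which 3.58% of 8707 genes did. Clk3 had the lowest adjusted p (log2 fold change 3.44, SE 1.02; limma, adjusted p = 0.11). It was at 48.9, 33.4, 71.6 and 35.2 RPKM in osteoprogenitors (letters L, M, N and O) and at 5.37, 0, 40.8, 3.82 and 0.0718 RPKM in stromal progenitors (letters C, L, M, N and O). Only stromal library M reached the osteoprogenitor range. Clk3 passed both thresholds without letter M (log2 fold change 4.41), with array weights (3.38), median-ratio scaling (3.53) and all libraries in the fit (3.44). Since Clk3 was above 1 RPKM in only 3 of 5 stromal libraries, these calls support nothing either. Srsf7 was the only one of the 10 genes whose groups did not overlap here, where 2.94% of genes were higher without overlap: it was at 259, 269, 263 and 343 RPKM in osteoprogenitors and at 117, 72.2, 221, 172 and 224 RPKM in stromal progenitors (log2 fold change 0.92, SE 0.38; limma, adjusted p = 0.30). Clk1 (0.91, SE 0.37; adjusted p = 0.29) had an unadjusted p of 0.026 in the same limma fit. Clk2, whose test supports nothing, had a log2 fold change of 2.55 (SE 0.98; limma, adjusted p = 0.26). Median-ratio scaling moved the median of all genes by 0.15 in this comparison. Without letter L, whose stromal library carried neutrophil and erythroid markers, the log2 fold change was 2.88 for Clk3 (adjusted p = 0.33, limma), 0.70 for Srsf7, 0.70 for Clk1 and 3.29 for Clk2.

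In the lists for this comparison only Dnajb1, a co-chaperone of the heat shock list, passed (224 ± 43.7 RPKM in osteoprogenitors, n = 4, against 66.5 ± 33.1 RPKM, n = 5; log2 fold change 1.95, SE 0.51; limma, adjusted p = 0.056). The gene furthest from 0 was Srsf1 among other SR proteins (1.30, SE 0.65), Tra2a among SR-related proteins (1.93, SE 0.88) and Srpk1 among other kinases (1.21, SE 1.16). It was Hnrnpul2 among hnRNP proteins (-1.87, SE 0.90), Sf1 in the core spliceosome (1.45, SE 0.90), Upf3b in nonsense-mediated decay (1.70, SE 1.09) and Ier2 among immediate-early genes (0.87, SE 0.52). Immediate-early genes had a median log2 fold change of 0.57 and 11 of 12 above 0. Their part in the values of the splicing genes was not tested.

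Myeloma-bearing and healthy mice were compared within each niche cell type, with the same healthy libraries as in the comparisons of healthy cell types and the same niche libraries of myeloma-bearing mice as in the comparison with myeloma cells. None of the 10 genes was called in endothelial cells, where 0% of 7880 genes was called by limma and 414 (5.25%) had an unadjusted p below 0.05, and the lowest adjusted p among the 10 was 0.93. The same held in stromal progenitors, with 0% of 8747 genes called, 437 (5%) with an unadjusted p below 0.05 and a lowest adjusted p of 0.96. In osteoprogenitors 0.0115% of 8664 genes were called and 422 (4.87%) had an unadjusted p below 0.05, with a lowest adjusted p of 0.98 among the 10. Voom-limma on recovered reads called 4, 0 and 0 genes in the 3 cell types. With all 38 libraries in 1 limma fit, 150, 28 and 24 genes were called, so these counts depend on which libraries are fitted together. The paper reported more genes than any of these fits in each cell type at the same thresholds. Median log2 fold changes of the 10 genes were -0.19, 0.08 and -0.32, beside 0.07, 0.00 and -0.03 over all genes.

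Clk4, Srsf6 and Srsf11, 3 of the 10 genes, had the same sign in the 3 cell types, as did 26.5% of the 6359 genes tested in all of them, so nothing is read from the sign. Clk4 was at 119 ± 67.7 RPKM in myeloma-bearing and 184 ± 89.3 RPKM in healthy mice in endothelial cells (SD, n = 5 each; log2 fold change -0.84, SE 0.67), at 66.9 ± 33.8 and 118 ± 51.4 RPKM in stromal progenitors (n = 5 each; -1.003, SE 0.59) and at 88.4 ± 45.01 and 190 ± 108 RPKM in osteoprogenitors (n = 4 each; -1.18, SE 0.58). The adjusted p was 0.96, 0.96 and 0.98 (limma), and the groups overlapped in each. Clk1 had log2 fold changes of 0.28 (SE 0.44), 0.02 (SE 0.51) and -0.32 (SE 0.36) in turn. With 1 letter left out Clk4 ran from -1.08 to -0.29 (nearest 0 without letter D) for endothelial cells, -1.22 to -0.45 (without I) for stromal progenitors and -1.44 to -0.61 (without I) for osteoprogenitors. In stromal progenitors Clk4 was -1.09 without letter L and -1.06 without letter E, the libraries with neutrophil markers, and Clk1 was -0.080 and -0.029.

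Clk2 was the only one of the 10 genes whose groups did not overlap in any of these comparisons. In osteoprogenitors it was at 16.5, 18.8, 23.6 and 33.5 RPKM in healthy mice (letters L, M, N and O) and at 0.555, 1.65, 0.898 and 11.3 RPKM in myeloma-bearing mice (letters D, G, I and J). The adjusted p was 0.98 (limma), and 1.32% of all genes were lower without overlap. With 2 of 4 libraries of myeloma-bearing mice above 1 RPKM, Clk2 met the filter through the healthy mice, where it was higher, so the lack of overlap is given as a description. In stromal progenitors Clk2 was at 9.45 ± 6.81 RPKM in myeloma-bearing and 6.43 ± 8.47 RPKM in healthy mice (log2 fold change 0.89, SE 1.10), with 3 of 5 healthy libraries above 1 RPKM, and in endothelial cells at 39.4 ± 31.3 and 51.1 ± 39.8 RPKM (-0.62, SE 1.13).

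Srsf11 and Srsf2 had the largest differences of SR genes in endothelial cells. Srsf11 was at 289.6, 93.9, 104, 105 and 56.6 RPKM in myeloma-bearing mice (letters D, E, G, I and J) and at 45.6, 52.9, 73.6, 68.2 and 26.2 RPKM in healthy mice (letters C, L, M, N and O; log2 fold change 1.13, SE 0.66; limma, adjusted p = 0.93). Only library J of the myeloma-bearing mice fell within the healthy range. Srsf2 was at 289 ± 37.8 and 478 ± 177 RPKM (-0.66, SE 0.42; adjusted p = 0.94). In stromal progenitors and osteoprogenitors every SR gene had a log2 fold change between -0.37 and 0.37. Median-ratio scaling moved the median of all genes by 0.11 in endothelial cells and turned Srsf6 above 0. None of the 8 lists had a called gene in any of these 3 comparisons. Over the 6 splicing lists the gene furthest from 0 was Upf3b in endothelial cells, Srpk2 in stromal progenitors and Srpk1 in osteoprogenitors. In myeloma-bearing and healthy mice Upf3b was at 0 to 31.3 and 0 to 10.3 RPKM. Srpk2 was at 0.0682 to 4.90 and 0.808 to 34.4 RPKM, and Srpk1 at 0 to 1.33 and 0 to 19.4 RPKM. Their lower groups lay near the filter on low values, so no fold is given for them. Each had an adjusted p of at least 0.92 (limma).

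**Figure D5:**
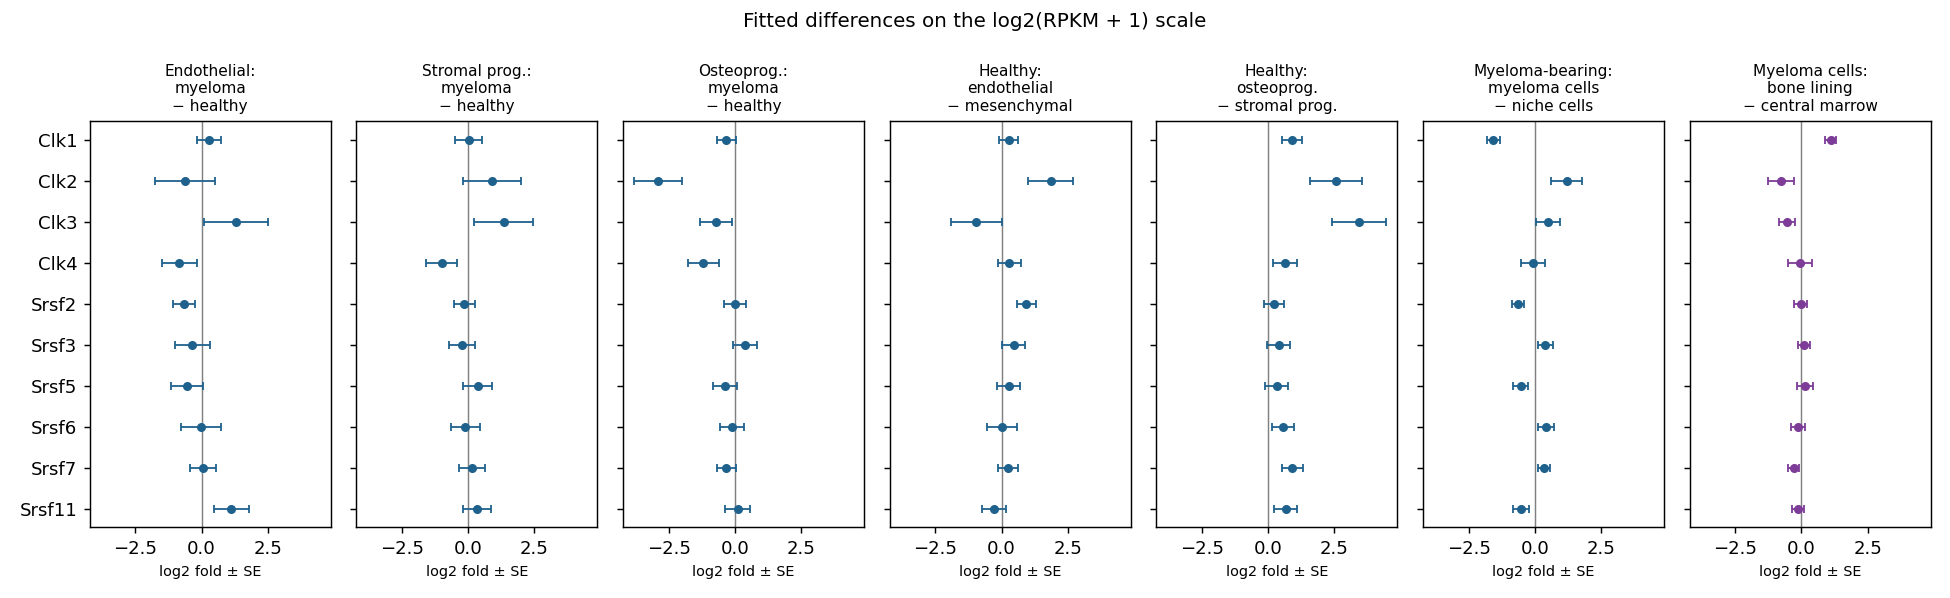
Log2 fold change ± SE (log2(RPKM + 1) scale) of each of the 10 genes in the 7 comparisons; the last panel (purple) is the comparison by which the genes were chosen. Clk1 is at -1.56 in myeloma against niche cells and at 1.11 in bone lining against central marrow myeloma cells, while Clk2 and Clk3 have the widest error bars in niche cells.

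The genes whose levels ran most like Clk1 over the 38 libraries were Pltp (Pearson r = 0.76 on the log2(RPKM + 1) scale), Slc43a3 (0.75), Kctd12 (0.75), Cxcl12 (0.75) and Rasd1 (0.75), of 12683 genes, the median r over all genes being -0.04. At a pseudocount of 0.1 they ranked 6, 2, 7, 8 and 4 in turn, so the choice of these genes depends on the pseudocount. In myeloma cells Kctd12 was at 2.70 ± 1.71 RPKM in the bone lining and 0.470 ± 0.450 RPKM in the central marrow (SD, n = 5 each), and the other 4 were below 1 RPKM on average at both sites. Cxcl12, a chemokine of marrow stroma, was at 0.526 ± 0.969 RPKM in bone lining and 0.0854 ± 0.0532 RPKM in central marrow myeloma cells, and Pltp, a phospholipid transfer protein, at 0.0185 ± 0.0254 and 0.0271 ± 0.0387 RPKM. With group means taken off, r was 0.66 for Pltp, 0.33 for Slc43a3, 0.16 for Kctd12, 0.32 for Cxcl12 and 0.39 for Rasd1. Libraries of a group share their cell type and sort, the mouse line is common to all, and depth varies between libraries, so these values are descriptions.

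Among themselves the 10 genes ran largely apart. Within groups the 45 pairs had r from -0.43 to 0.57 with a median of 0.03, and 3 pairs were above 0.4: Clk1 with Srsf7 (0.57), Clk2 with Srsf6 (0.49) and Clk4 with Srsf7 (0.46). The lowest was Clk4 with Srsf11 (-0.43). Without the stromal progenitor library I of myeloma-bearing mice, a choice made after the values were seen, Clk1 with Srsf7 was 0.33, Clk4 with Srsf7 was 0.28 and Clk2 with Srsf6 was 0.51, the only pair then above 0.4, and the median was 0.019. Over all 38 libraries, group differences included, Clk1 and Srsf7 had r = 0.22.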

How the data were processed

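RNA-Seq values of 38 libraries in 8 groups were used, with groups and replicate letters from the labels. Per the labels and methods, the authors aligned single-end reads to GRCm38 (mm10) with STAR 2.4.0, counted reads per gene with featureCounts (Subread 1.4.5-p1), dropped genes that did not exceed 1 CPM in 4 or more samples and deposited RPKM values made with edgeR. RPKM divides by gene length and library size, so a change in a few abundant genes shifts all others, and isoforms are not separated. The members and gene lists were chosen with earlier results of these data known.

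Whole reads were recovered from RPKM steps: 100% of values were whole within 0.02, and totals were 9735031 to 34883291. This was checked on simulated data. Log2(RPKM + 1) values were tested with limma 3.58.1 (trend, R 4.3.3) on genes above 1 RPKM in at least 4 libraries of the fit, with Benjamini-Hochberg adjustment over all of them. Genes were called at adjusted p below 0.1 and a log2 fold change beyond 1 in size. The study used voom-limma, run here as an alternative on recovered reads. Other alternatives were the pseudocount, the filter, all libraries in 1 fit, array weights, median-ratio scaling, a replicate block and leaving out each letter. The labels do not say which mouse a library came from, so p-values measure the spread between these samples, which may be technical. No 2 libraries of a group agreed within sampling noise. Named genes were the 10 members, the 5 most like Clk1, and of each list the called genes with the 2 largest rises and falls, or the gene furthest from 0. Exons were read from GENCODE vM21. Python 3.11.15, numpy 2.4.6, pandas 2.3.3 and matplotlib 3.10.9 were used. Promoter sequences and proteins were not used here.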

Additional observations from a re-analysis of the deposited data

Results flagged for a closer look

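The 80 sets of 10 genes by 8 groups were searched for a single library far from the rest of its group (Dixon's 95% critical value), and 7 were found, where chance alone gives about 4. Clk2 in osteoprogenitors of myeloma-bearing mice was at 11.3 RPKM in library J, above the other 3. Clk3 in healthy stromal progenitors was at 40.8 RPKM in library M and Srsf3 in the same group at 103 RPKM in library O. Srsf6 in bone lining myeloma cells was at 43.7 RPKM in library E, below the other libraries. Srsf7 in healthy osteoprogenitors was at 343 RPKM in library O. Srsf11 was at 289.6 RPKM in library D of endothelial cells and at 152 RPKM in library I of stromal progenitors, both from myeloma-bearing mice.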

How the results depend on the processing

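Of 60 tested results of the 10 genes, 366 of 390 values under alternatives other than leaving out a letter kept their direction and side of the thresholds, 15 reversed, 4 passed and 5 ceased to pass. Of 430 values with 1 letter left out, 385 kept both, 38 reversed, 3 passed and 4 ceased to pass. The causes were not tested. All 80 group means moved by less than 1 SD under median-ratio scaling. Clk1 in myeloma against niche cells kept its call throughout (adjusted p 2.6e-07 to 0.0071, limma).

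Genes called in endothelial cells, myeloma-bearing against healthy mice, numbered 0, but 2 without a filter, 150 with all libraries in the fit and 4 with voom-limma. In stromal progenitors they numbered 28 with all libraries in the fit. In osteoprogenitors they numbered 1, but 0 without a filter, 24 with all libraries, 2 with array weights and 0 with voom-limma. Between osteoprogenitors and stromal progenitors all libraries in the fit gave 501 in place of 312, and between the myeloma sites 1 was called without a filter and 8 with voom-limma in place of 18. With 1 letter left out the counts ran from 0 to 0, 0 to 1 and 0 to 1 in the 3 cell types, from 1527 to 1914 between endothelial and mesenchymal cells, from 113 to 343 between osteoprogenitors and stromal progenitors, from 5495 to 5655 for myeloma against niche cells and from 3 to 16 between the myeloma sites. Counts moved by over 1.5 times without letters C, L or M (1 each) in stromal progenitors, G, I or J (0 each) in osteoprogenitors, L (113), M (170), N (116) or O (131) between osteoprogenitors and stromal progenitors, and D (3) or G (10) between the myeloma sites. Median-ratio scaling turned the split of higher and lower calls from 147 and 165 to 186 and 140 between osteoprogenitors and stromal progenitors, and from 791 and 1362 to 637 and 1542 between endothelial and mesenchymal cells.

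Log2 fold changes of genes that did not pass the test changed sign as follows. In endothelial cells of myeloma-bearing against healthy mice, Clk2 was 0.18 and Srsf6 0.49 with array weights, Srsf6 0.15 with median-ratio scaling and Srsf7 -0.049 with voom-limma. In stromal progenitors, voom-limma gave Clk1 -0.092 and Srsf7 -0.00031, and in osteoprogenitors array weights gave Srsf11 -0.16. Between healthy endothelial and mesenchymal cells, Srsf6 was -0.0018 at a pseudocount of 0.1, -0.41 with array weights, -0.35 with median-ratio scaling and -0.024 with voom-limma, and median-ratio scaling gave Clk1 -0.086, Clk4 -0.053, Srsf5 -0.082 and Srsf7 -0.11.

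Leaving out 1 letter gave these ranges. In endothelial cells Clk2 ran from -1.33 to 0.35, Srsf6 from -0.57 to 0.42 and Srsf7 from -0.18 to 0.21. In stromal progenitors Clk1 ran from -0.31 to 0.52, Srsf2 from -0.36 to 0.011, Srsf5 from -0.033 to 0.69, Srsf6 from -0.32 to 0.24, Srsf7 from -0.12 to 0.50 and Srsf11 from -0.014 to 0.48. In osteoprogenitors Srsf2 ran from -0.15 to 0.42, Srsf6 from -0.41 to 0.043 and Srsf11 from -0.12 to 0.31. Between endothelial and mesenchymal cells Clk1 ran from -0.060 to 0.52, Clk4 from -0.034 to 0.62 and Srsf6 from -0.67 to 0.55. In myeloma against niche cells Clk4 ran from -0.45 to 0.22.

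Between endothelial and mesenchymal cells Clk2 passed both thresholds without letter C (2.34) and with the replicate block (2.14), and Srsf2 without letter O (1.15). The replicate block on the letter gave 2219, 268, 5934 and 12 called genes for endothelial against mesenchymal cells, osteoprogenitors against stromal progenitors, myeloma against niche cells and the myeloma sites. The letters were not taken to pair the samples, since not every same-letter pair deviated together: over 59 such pairs and 7359 genes the correlation of deviations from group means ran from -0.077 to 0.15, with 5 pairs above 0.1, of letters G and I. No paired analysis was possible because healthy and myeloma-bearing mice share no letters in those 3 comparisons. Groups of 4 or 5 libraries of 100 cells limit the precision for Clk2 and Clk3 most.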
